A study of Mus musculus with 2 samples.

Results

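The proteins of the cytosolic ribosome are encoded by a family of highly expressed genes, and their RNA was measured in 2 RNA-seq libraries of haematopoietic stem cells sorted from mouse bone marrow. One library is labelled Per2def, from Per2-deficient mice, and the other is labelled Per2wt, from wild-type mice. Both are from untreated C57BL/6 animals kept under alternating light and dark. The sources used here do not state the Per2 allele, the age and number of animals, the sort markers or the time of collection. Members were chosen by gene symbol alone: Rpl or Rps followed by a digit, with Rplp0, Rplp1, Rplp2 and Rpsa, and without the Rps6k kinases and names containing -ps. The rule matched 87 of 23961 symbols, and 86 members remained after Rps27rt was summed into Rps27. Of these, 46 encode large subunit proteins, 31 encode small subunit proteins and 7 were listed as paralogues of them. The other 2, Rps19bp1 and Rpl7l1, matched the naming rule but were on neither the subunit lists nor the paralogue list used here. Fau and Gnb2l1, for example, also encode ribosomal proteins but fall outside the naming rule, so the 77 subunit genes are not the complete set.

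Each ribosome joins a small subunit, which reads the mRNA, to a large subunit, which forms the peptide bonds. Every subunit needs its proteins in fixed proportions, and surplus ones are degraded. The mRNAs of most of these proteins start with a pyrimidine tract, the 5′ terminal oligopyrimidine (TOP) motif, through which mTOR signalling and the RNA-binding protein LARP1 control their translation together. Haematopoietic stem cells are known for a low rate of protein synthesis, and in humans loss of 1 copy of several of these genes causes Diamond-Blackfan anaemia, a failure of red cell production.

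Values are FPKM, which set fragment counts against transcript length and each library's mapped total. Each genotype has a single library, so no replicate error and no test can be given, and every difference is one between these libraries. Differences are given as log2(FPKM + 1), the library labelled Per2def minus the library labelled Per2wt. Low genes therefore show less than their true change. A gene counted as measured if either library had 1 FPKM or more, which 11120 genes reached. The files give no read totals, so no interval can be set. The most common FPKM ratio among 3232 low genes was 0.805, with 255 of them close to it. If those genes had equal fragment counts in both libraries, the depth was 1.24 times as high in the library labelled Per2def. That condition was not tested. Per2 itself stood at 6.16 FPKM in the library labelled Per2def and 1.96 FPKM in the library labelled Per2wt. The targeted gene was thus higher in the library labelled deficient, so every direction below rests on the labels. Of 13 stem and progenitor markers 10 were measured, with summed levels of 266 and 267 FPKM in the libraries labelled Per2def and Per2wt, while Slamf1, Fgd5 and Hoxb5 were under 1 FPKM in both. Neutrophil markers differed far more, with 11 of 12 higher and a sum of 1012 FPKM in the library labelled Per2def, against 529 FPKM in the library labelled Per2wt. Of 13 measured erythroid markers 7 were higher, and the list summed to 769 FPKM in the library labelled Per2def, against 814 FPKM in the library labelled Per2wt. The median difference of that list was 0.23, opposite in direction to the sum. Single erythroid genes ran both ways, such as Car1 (0.72) and Hba-a1 (−0.75), so the sum does not describe the list. Of 6 measured T cell markers 5 were higher, with sums of 22.3 FPKM in the library labelled Per2def and 16.9 FPKM in the library labelled Per2wt. Beside these counts of higher markers, 62.0% of all measured genes were higher in the library labelled Per2def. The B cell list had 1 measured gene of 7, with sums of 6.55 and 6.94 FPKM in the libraries labelled Per2def and Per2wt, and the megakaryocyte list 6 of 8, with 36.2 and 38.2 FPKM. No listed marker that the files hold was at 0 in both libraries. The part of these cell types in the values below was not tested, and in bulk RNA fewer cells of a type and less RNA per cell cannot be told apart.

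Ribosomal protein genes were among the most abundant in both libraries. The 77 subunit genes summed to 60098 FPKM in the library labelled Per2def and 61271 FPKM in the library labelled Per2wt. That was 30.4% and 31.2% of all FPKM, in the same order, once rows named as small or predicted RNAs were set aside, and 6.20% and 6.35% over all rows, of which the small RNA row Mir6236 alone took 71.5% and 71.3%. Of the 100 most abundant remaining genes, 69 in each library were subunit genes. Most lay in a narrow band: 53 of 77 stood between 500 and 1200 FPKM in the library labelled Per2def, and 52 in the library labelled Per2wt.

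In the large subunit the acidic stalk protein gene Rplp1 was highest, at 2015 FPKM in the library labelled Per2def and 1931 FPKM in the library labelled Per2wt. Rpl28 followed at 1607 FPKM in the library labelled Per2def and 1649 FPKM in the library labelled Per2wt, and then came Rpl41, Rpl32 and Rpl38, all above 1100 FPKM in both. Rpl41 encodes an exceptionally short ribosomal peptide. At the low end of the large subunit were Rpl26, at 24.6 FPKM in the library labelled Per2def and 26.5 FPKM in the library labelled Per2wt, and Rpl30, at 39.4 FPKM in the library labelled Per2def and 36.9 FPKM in the library labelled Per2wt. Rpl22, Rpl34 and Rpl15 were the next lowest. In the small subunit Rps12 led with 1553 FPKM in the library labelled Per2def and 1556 FPKM in the library labelled Per2wt, followed by Rps28, Rps14, Rps9 and Rps2. Rps15a was the lowest small subunit gene, at 36.9 FPKM in the library labelled Per2def and 41.7 FPKM in the library labelled Per2wt. By the mean of the libraries the next lowest was Rps3, a protein at the mRNA entry site, which had 378 FPKM in the library labelled Per2def and 392 FPKM in the library labelled Per2wt. Rps25 was close to it, at 395 FPKM in the library labelled Per2def and 386 FPKM in the library labelled Per2wt, so the order of Rps3 and Rps25 differed between the libraries. Rpsa and Rps13 were the next above them. The order of the genes was nearly the same in both libraries, with a Spearman correlation of 0.993 across 77 genes, which are not independent replicates and share each library's processing. The median gene moved by 1 place in that order, and Rps27 moved most, by 13 places.

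**Figure D1:**
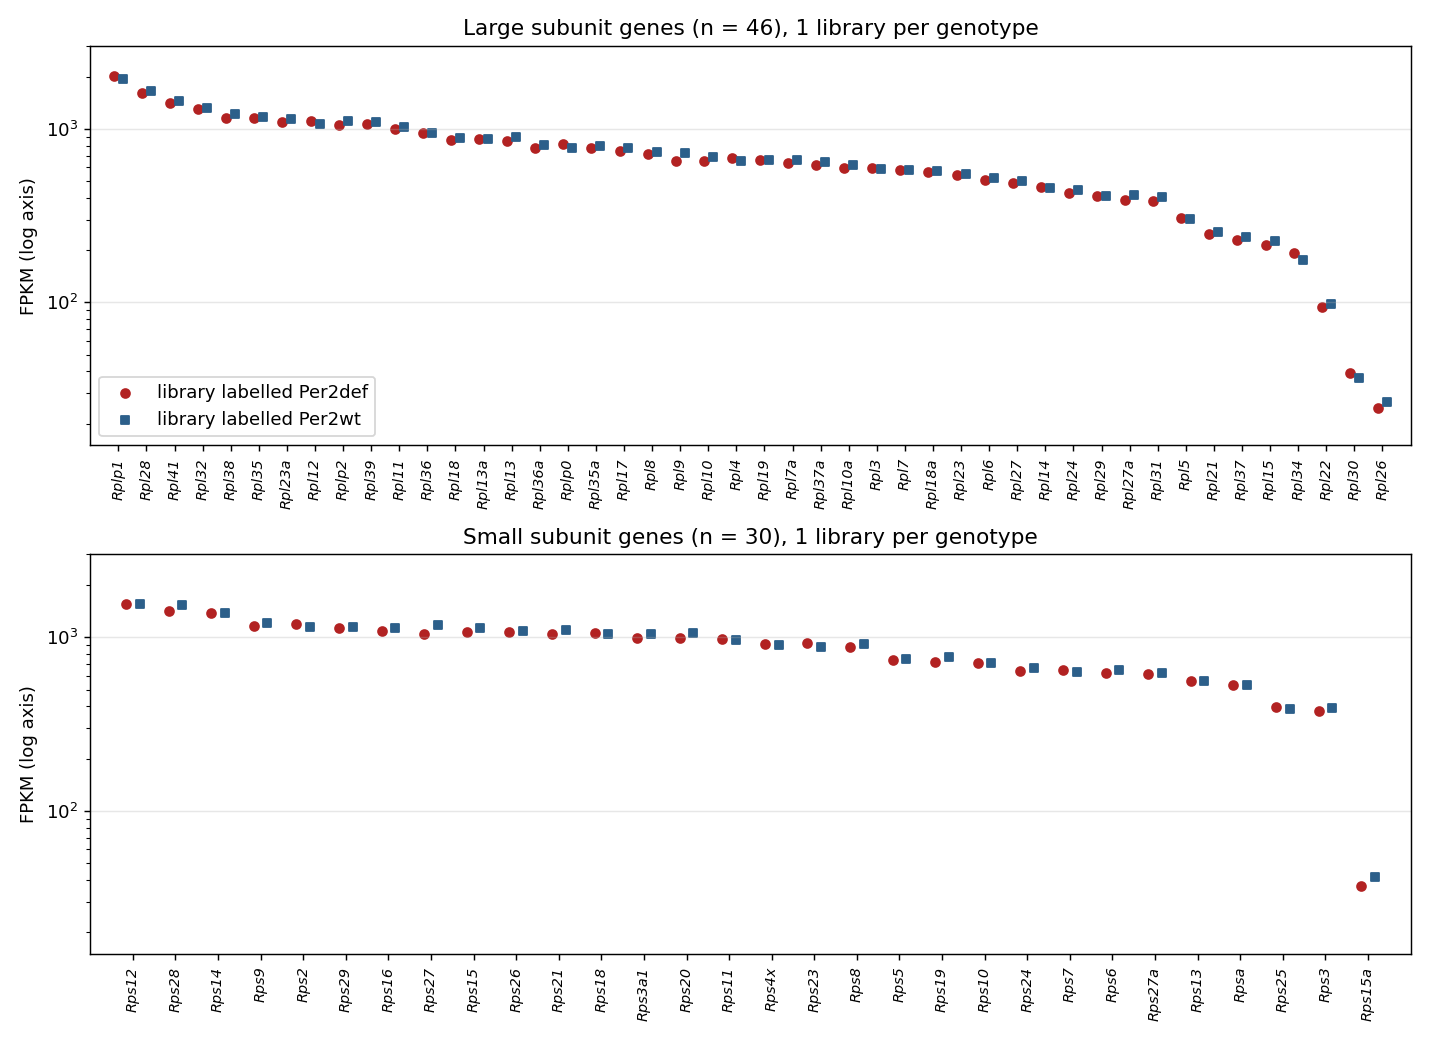
FPKM of each large subunit gene (top) and small subunit gene (bottom), ordered by mean level, on a log axis, with circles for the library labelled Per2def and squares for the library labelled Per2wt. The symbols of a gene lie close together throughout, and Rpl26, Rpl30, Rpl22 and Rps15a stand under 100 FPKM in both libraries. One small subunit gene is not drawn.

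Small subunit genes stood higher per length than large subunit genes. Their median was 974 FPKM in the library labelled Per2def and 960.0 FPKM in the library labelled Per2wt, while that of large subunit genes was 653 FPKM in the library labelled Per2def and 662 FPKM in the library labelled Per2wt. The ratio of the large to the small median was 0.670 in the library labelled Per2def and 0.690 in the library labelled Per2wt. The ratio of the means was nearer to equal, at 0.794 in the library labelled Per2def and 0.791 in the library labelled Per2wt. The 20 most abundant subunit genes were 11 small and 9 large subunit genes in each library. In each library 11 of 46 large subunit genes were above the small subunit median. Under 500 FPKM lay 14 large and 3 small subunit genes in the library labelled Per2def, and 13 large and 3 small in the library labelled Per2wt.

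Between the libraries the family differed little. On the scale of FPKM + 1, no subunit gene was 25% higher or 20% lower in the library labelled Per2def, limits that 8.19% of all measured genes passed upward and 4.38% downward. Shares past 1.5-fold were 2.60% upward and 1.70% downward, and past 2-fold 1.24% upward and 0.998% downward, again with no subunit gene. The level in the library labelled Per2def was within 5% of that in the library labelled Per2wt for 61 of 77 subunit genes and within 10% for 75. Of 137 genes outside the family with a mean of 100 FPKM or more, 111 (81.0%) were within 10%. The standard deviation of the difference across genes was 0.06 for subunit genes and 0.24 for these 137 genes. A few genes carry much of the second value, among them the neutrophil genes S100a8 (1.28) and S100a9 (1.18). The quartiles were −0.06 and 0.00 for subunit genes and −0.07 and 0.05 for the 137 genes, so the gap in the middle of the groups was smaller than the standard deviations show. The groups were not matched on level.

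Within that narrow range, most subunit genes had slightly lower values in the library labelled Per2def. Of 77 subunit genes 56 were lower and 21 higher, while 62.0% of all measured genes were higher and 38.0% lower. The median difference was −0.04 for subunit genes, 0.05 for all measured genes and 0.00 for the 137 abundant genes outside the family. The count of higher and lower genes depends on the scaling, which shifts all genes nearly alike: scaled by the median of ratios, 6 of 77 subunit genes were higher, with the median of all measured genes at 0.003. Large subunit genes had a median of −0.04, with 34 of 46 lower, and small subunit genes a median of −0.02, with 22 of 31 lower. Their means were both −0.03. The difference between the subunit medians, −0.02 for large minus small, became 0.04 when genes sharing most of their sequence with other genes were left out, so no order of the subunits can be read from it.

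**Figure D2:**
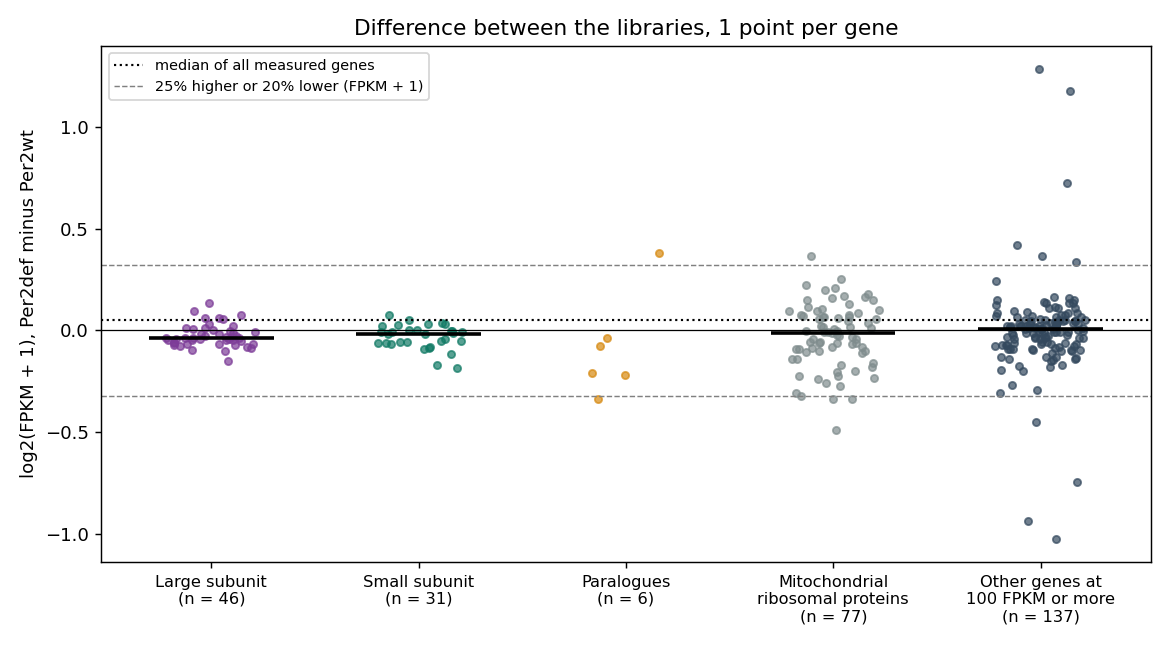
Difference in log2(FPKM + 1), the library labelled Per2def minus the library labelled Per2wt, with 1 point per gene, bars at group medians (none for the paralogues), a dotted line at the median of all 11120 measured genes and dashed lines at 25% higher and 20% lower on the scale of FPKM + 1. All 77 subunit genes lie inside the dashed lines, while mitochondrial ribosomal protein genes and other abundant genes spread past them. Rpl10l, listed at 0 in both libraries, is not drawn.

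Among large subunit genes the lowest difference belonged to Rpl9, at 651 FPKM in the library labelled Per2def and 721 FPKM in the library labelled Per2wt (−0.15). Rpl26 (−0.10), Rpl27a (−0.10), Rpl38 (−0.09), Rpl31 (−0.08) and Rpl15 (−0.08) came next. Rpl38 is known in the mouse for a role in translating Hox mRNAs, and it stood at 1147 FPKM in the library labelled Per2def and 1219 FPKM in the library labelled Per2wt. The highest difference was that of Rpl34, at 192 FPKM in the library labelled Per2def and 175 FPKM in the library labelled Per2wt (0.13), followed by Rpl30 (0.09). Rpl34 has a -ps row that went the other way, as described with the other copies. Rplp0 (0.08), Rplp1 (0.06), Rpl12 (0.06) and Rpl4 (0.05) completed the highest 6. RPLP0, RPLP1 and RPLP2 form the stalk that recruits elongation factors, and RPL12 sits at its base. Rplp0 stood at 813 FPKM in the library labelled Per2def and 770.0 FPKM in the library labelled Per2wt. Rplp2 was lower than in the library labelled Per2wt (−0.07), at 1057 FPKM in the library labelled Per2def and 1111 FPKM in the library labelled Per2wt. The stalk genes therefore did not share a direction.

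In the small subunit the widest difference was that of Rps27, a zinc-binding protein gene, with its near copy Rps27rt included (−0.18). Rps15a (−0.17) and Rps28 (−0.12) followed, and Rps28 stood at 1419 FPKM in the library labelled Per2def and 1539.7 FPKM in the library labelled Per2wt. Rps19 (−0.09), Rps20 (−0.09) and Rps3a1 (−0.08) completed the lowest 6. The highest were Rps23 (0.07), a decoding centre protein gene, at 924 FPKM in the library labelled Per2def and 878 FPKM in the library labelled Per2wt, and Rps2 (0.05), at 1192 FPKM in the library labelled Per2def and 1149 FPKM in the library labelled Per2wt. Rps25 (0.04), the X-linked Rps4x (0.03), Rps7 (0.03) and Rps18 (0.03) were the next highest. The widest difference in the small subunit thus stayed inside the limits of 25% and 20%.

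Genes mutated in human Diamond-Blackfan anaemia made up 19 of the 77 subunit genes, and 17 of the 19 had lower values in the library labelled Per2def. Their median was −0.04. Of the other 58 subunit genes 39 were lower, with a median of −0.03, and of all measured genes 38.0% were lower. These counts depend on the scaling: scaled by the median of ratios, only 6 of all 77 subunit genes were higher. The lowest of the 19 were Rps27, Rps15a and Rps28, given above, and those with higher values were Rps7 (0.03) and Rpl5 (0.02). Rps19, the most often mutated gene in that disease, was at 720.4 FPKM in the library labelled Per2def and 767 FPKM in the library labelled Per2wt. Rpl5 and Rpl11 encode the proteins that bind 5S ribosomal RNA and that restrain MDM2, the inhibitor of p53. Rpl5 stood at 308 FPKM in the library labelled Per2def and 303 FPKM in the library labelled Per2wt, and Rpl11 at 993 FPKM in the library labelled Per2def and 1021 FPKM in the library labelled Per2wt. Both genes differed by less than 3% between the libraries.

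Many genes of this family carry small nucleolar RNAs in their introns, which guide modification of ribosomal RNA. By the GENCODE M21 annotation (GRCm38), 30 of the 77 subunit genes hold at least 1 such gene on their strand and 58 in all, with 5 in Rpl4. The hosts had a median difference of −0.03 and the 47 other subunit genes −0.04. The 4 X-linked genes, Rpl10, Rpl36a, Rpl39 and Rps4x, had a median of −0.04 and the 73 autosomal genes −0.03.

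Paralogues can replace the usual protein in some ribosomes, and here the pair of Rpl22 and Rpl22l1 stood out by the share of the paralogue. In the mouse, RPL22 protein is known to repress the Rpl22l1 mRNA. Rpl22l1 (chromosome 3, 28805436 to 28807424, GRCm38) was at 116 FPKM in the library labelled Per2def and 147 FPKM in the library labelled Per2wt. The difference of −0.34 made it the only measured member more than 20% lower. Rpl22 (chromosome 4, 152325742 to 152334071) was at 93.8 FPKM in the library labelled Per2def and 98.3 FPKM in the library labelled Per2wt (−0.07). The paralogue thus exceeded its parent in both libraries and took 55.2% of the pair in the library labelled Per2def and 59.9% in the library labelled Per2wt. Of the Rpl22l1 transcript's stretches of 50 bases, 65.6% also occur in another annotated gene, chiefly the predicted gene Gm15421, so its level is uncertain.

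Other paralogues were minor or silent. Rps27l, a p53-responsive gene, stood at 99.5 FPKM in the library labelled Per2def and 102 FPKM in the library labelled Per2wt (−0.04), or 8.72% and 7.93% of the sum with Rps27 in the same order. Rpl36al, a copy of the X-linked Rpl36a, was at 282 FPKM in the library labelled Per2def and 297 FPKM in the library labelled Per2wt (−0.08), or 26.5% and 27.0% of its pair. Rps4l was at 4.09 FPKM in the library labelled Per2def and 4.93 FPKM in the library labelled Per2wt (−0.22). Rpl3l, known from striated muscle, was at 0.0900 FPKM in the library labelled Per2def and 0.263 FPKM in the library labelled Per2wt, and Rpl39l, known from testis, at 0.350 FPKM in the library labelled Per2def and 0.0362 FPKM in the library labelled Per2wt. Both are under 1 FPKM, where a few reads set the value, so their ratio between libraries is not read here. Rpl10l, also a testis gene, was listed at 0 in both. Of the members on neither the subunit lists nor the paralogue list, Rps19bp1, which encodes a regulator that binds RPS19, was at 12.4 FPKM in the library labelled Per2def and 14.0 FPKM in the library labelled Per2wt (−0.16). Rpl7l1 was at 23.0 FPKM in the library labelled Per2def and 23.6 FPKM in the library labelled Per2wt (−0.04).

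The Rps27 group holds copies of identical coding sequence, and how reads were divided among them was not tested. Rps27 lies on chromosome 3 (90212522 to 90213651), and Rps27rt, a copy on chromosome 9 (114982366 to 114982739), has a coding sequence of 255 bases without a single difference from it. The coding sequences of Rps27 and of its paralogue Rps27l are shown because they mark which reads can be told apart: that of Rps27 (chr3:90212725-90213615, minus strand, introns removed, GENCODE M21, GRCm38) serves for Rps27rt as well, and capitals in that of Rps27l (chr9:66946175-66949357, plus strand, introns removed) mark its 61 differences.
Rps27: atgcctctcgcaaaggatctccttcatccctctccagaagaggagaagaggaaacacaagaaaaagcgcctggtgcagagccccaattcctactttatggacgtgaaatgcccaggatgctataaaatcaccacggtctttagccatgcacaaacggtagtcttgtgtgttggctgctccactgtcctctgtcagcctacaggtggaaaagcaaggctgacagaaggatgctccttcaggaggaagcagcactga
Rps27l: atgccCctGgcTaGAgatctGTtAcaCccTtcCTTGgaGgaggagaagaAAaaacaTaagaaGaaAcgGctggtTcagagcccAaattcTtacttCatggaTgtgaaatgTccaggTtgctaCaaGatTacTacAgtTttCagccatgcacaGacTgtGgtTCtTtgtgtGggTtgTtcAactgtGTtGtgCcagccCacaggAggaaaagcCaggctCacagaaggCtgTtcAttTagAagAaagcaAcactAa
The differences are scattered along the whole of Rps27l, which is 76.1% identical to Rps27, whereas 98.6% of the stretches of 50 bases in the Rps27 transcript also occur in Rps27rt.

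Read on its own, the Rps27 row was at 64.1 FPKM in the library labelled Per2def and 3.89 FPKM in the library labelled Per2wt. The Rps27rt row ran the other way, at 978 FPKM in the library labelled Per2def and 1179.6 FPKM in the library labelled Per2wt (−0.27). The copy on chromosome 9 thus held 93.9% of the sum in the library labelled Per2def and 99.7% in the library labelled Per2wt. Summed, the pair was at 1042 FPKM in the library labelled Per2def and 1183.5 FPKM in the library labelled Per2wt. The summed value is the one used for Rps27 elsewhere here, since reads from the shared sequence cannot be told apart. Of the Rps27rt transcript's stretches of 50 bases, 91.1% also occur in Rps27.

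**Figure D3:**
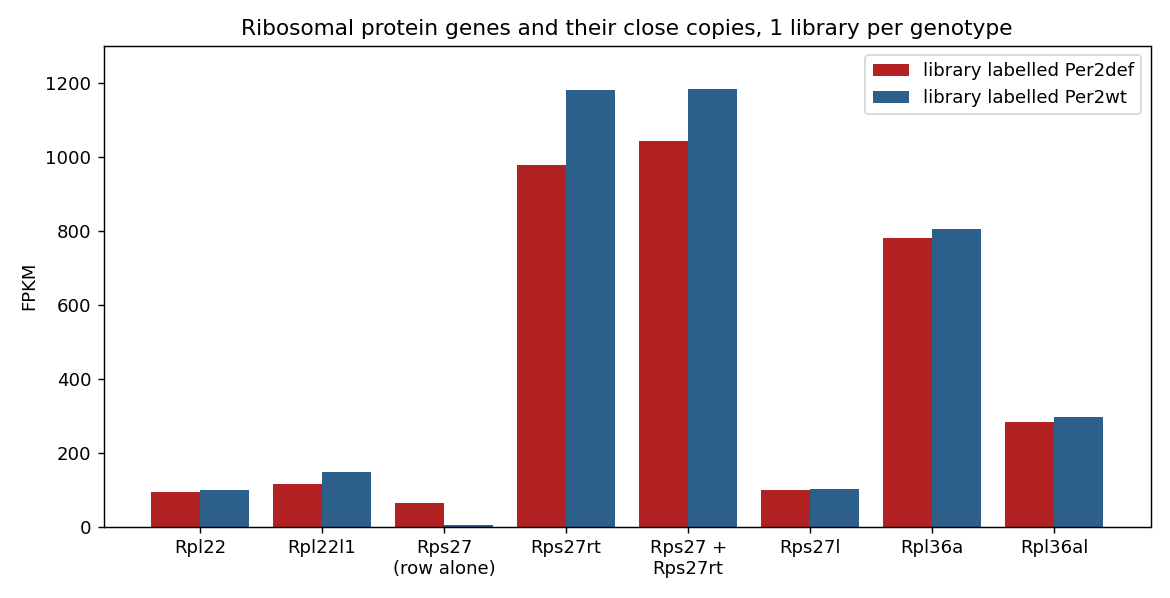
FPKM of ribosomal protein genes and close copies, with the library labelled Per2def on the left of each pair of bars and the library labelled Per2wt on the right. Rps27rt carries nearly all of the level of its sum with Rps27 in both libraries, and Rpl22l1 exceeds Rpl22 in both.

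Rows of copies elsewhere held FPKM as well, and whether their reads came from the parent genes was not tested. The 7 -ps rows of the files, which the naming rule leaves out, summed to 1248 FPKM in the library labelled Per2def and 1343 FPKM in the library labelled Per2wt. Rpl34-ps1 was at 574 FPKM in the library labelled Per2def and 651 FPKM in the library labelled Per2wt (−0.18). It exceeded Rpl34 itself in both libraries, and the pair summed to 766 FPKM in the library labelled Per2def and 826 FPKM in the library labelled Per2wt (−0.11). The highest large subunit difference, that of Rpl34, thus turned negative once its copy was added. Rps15a with its -ps rows Rps15a-ps4 and Rps15a-ps6 summed to 118 FPKM in the library labelled Per2def and 134 FPKM in the library labelled Per2wt (−0.19), close to the difference of Rps15a alone.

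Sharing is common in the family. The median subunit gene had 61.2% of its stretches of 50 bases in another annotated gene, with a range of 0 to 98.6%, and 51 of 77 genes shared at least 50%. Rpl26 shared 71.3% with 12 genes and Rpl30 76.4% with 17, while Rps12, the most abundant small subunit gene, shared 90.1% with 25. Mean level and shared percentage had a Spearman correlation of −0.0067 across the 77 genes by each gene's own row. Copies still bear on single genes, as the sums of Rpl34 and Rps15a with their -ps rows show. Annotated transcripts alone were searched, and the read length is not given in the sources used here.

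**Figure D4:**
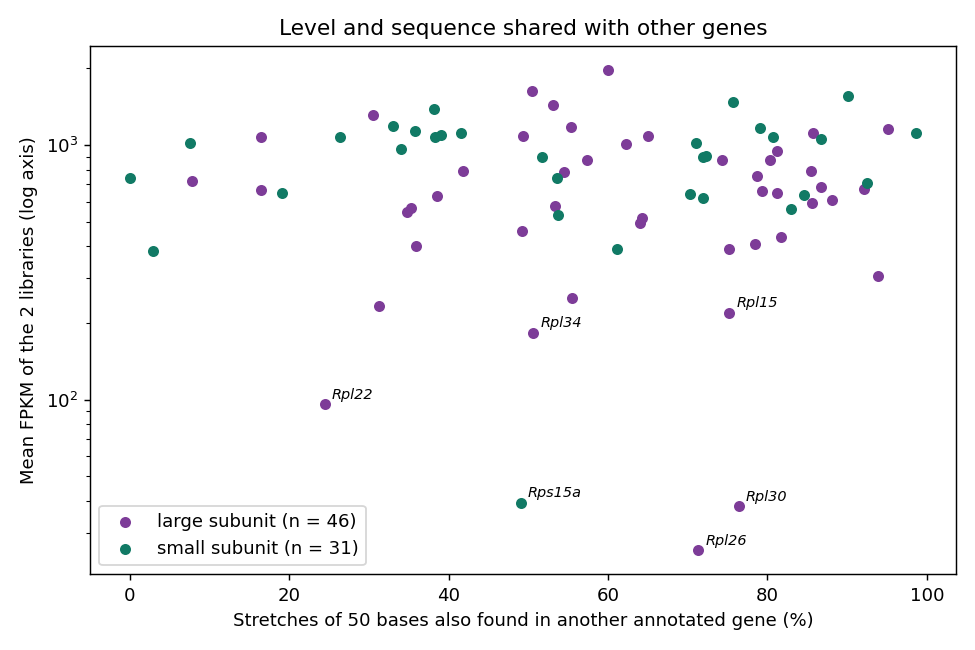
Mean FPKM of the libraries (log axis) against the percentage of stretches of 50 bases in each subunit gene's transcript that another annotated gene also holds, with 1 point per gene coloured by subunit and the 6 lowest genes named. Levels near 1000 FPKM occur from the lowest to the highest percentages.

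Because the TOP motif is a pyrimidine tract, the start sites of these genes were searched for pyrimidine runs. RefSeq start sites (GRCm38.p6) were used for the 57 subunit genes that the sequence table held. The longest run of C and T was taken in the 15 bases before and the 15 from each annotated start. A run wholly before the start, as shown for Rpl22 and Rps27l, would not be in an mRNA from that start. The counts below are therefore of runs and not of TOP tracts. The 6 subunit genes with the longest run are shown first, since they show such runs most plainly. Where a gene has several annotated starts, only the window with the longest run is shown. Then come Rpl22l1, Rpl22, Rps27 and Rps27l, whose levels are compared above. Capitals mark the longest pyrimidine run, and the start is the 16th base. The windows are, in order, chr2:26910792-26910821 (plus strand), chr7:109519180-109519209 (plus), chr3:130730323-130730352 (minus), chr2:39005117-39005146 (minus), chr14:18270972-18271001 (minus), chr9:120571502-120571531 (plus), chr3:28805493-28805522 (plus), chr4:152324421-152324450 (plus), chr3:90213634-90213663 (minus) and chr9:66946071-66946100 (plus).
Rpl7a: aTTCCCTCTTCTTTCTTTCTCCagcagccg
Rpl27a: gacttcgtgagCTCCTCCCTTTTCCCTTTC
Rpl34: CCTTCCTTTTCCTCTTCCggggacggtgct
Rpl35: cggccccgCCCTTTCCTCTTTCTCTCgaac
Rpl15: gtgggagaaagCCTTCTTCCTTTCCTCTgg
Rpl14: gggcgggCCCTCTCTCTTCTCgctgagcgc
Rpl22l1: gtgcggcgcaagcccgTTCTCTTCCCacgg
Rpl22: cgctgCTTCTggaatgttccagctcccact
Rps27: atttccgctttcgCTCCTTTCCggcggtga
Rps27l: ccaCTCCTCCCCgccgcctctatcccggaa
The run was 21 bases long in Rpl7a, 10 in Rpl22l1 and 5 in the Rpl22 window shown. A further Rpl22 window, chr4:152325711-152325740 (plus), lies nearer the Rpl22 coordinates given above and had a run of 4. A further Rpl34 window, chr3:130730384-130730413 (minus), holds the GENCODE M21 start of that gene, 130730398, and had a run of 8, against 18 in the window shown. A further Rps27l window had a run of 4. Annotated starts can lie some bases from the start used in these cells, so a short run here says only that these letters are not in this window.

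A run of at least 8 pyrimidines lay in 26 of the 67 start windows of subunit genes (38.8%), and in 12.0% of the 32851 windows in the table. The 25 subunit genes with such a run had a median of 774 FPKM in the library labelled Per2def and 799.6 FPKM in the library labelled Per2wt, while the 32 without one had 653 FPKM in the library labelled Per2def and 703 FPKM in the library labelled Per2wt. Their median differences were alike at −0.04 each.

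**Figure D5:**
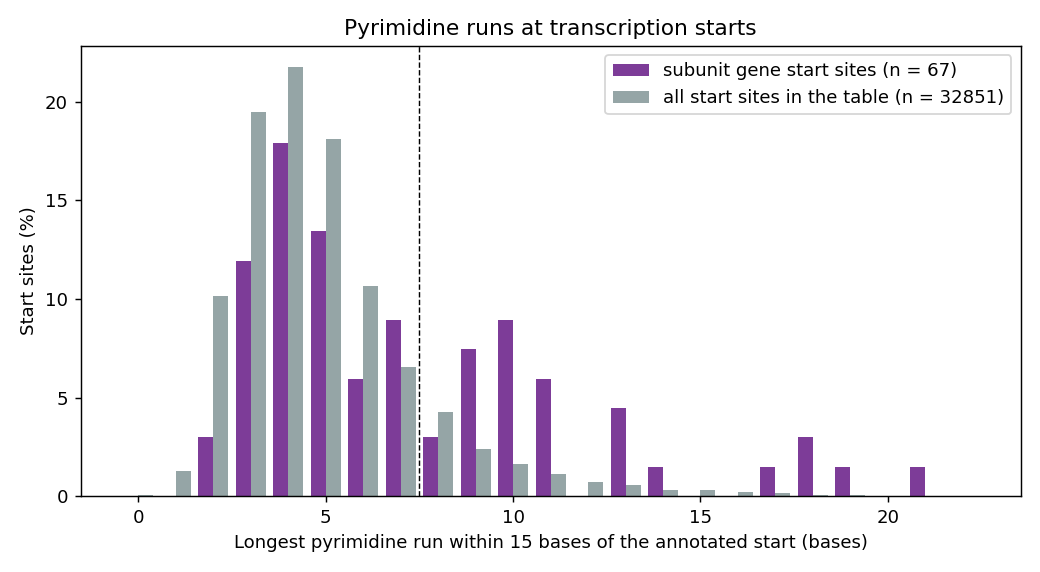
Percentage of start sites by the length of the longest pyrimidine run within 15 bases of the annotated start, for 67 start sites of subunit genes and all 32851 start sites in the table, with a dashed line below a length of 8. Subunit gene start sites reach 21 bases, and 38.8% of them lie at 8 bases or more, against 12.0% of all start sites.

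Clock factors bind named motifs, and these were counted in the 300 bases around the same start sites, on both strands. The E-box CACGTG, bound by the BMAL1 and CLOCK pair that Per2 protein represses, lay in 8 of 67 subunit promoters (11.9%), against 7.15% of all promoters in the table. It occurred in 6 genes, Rpl13a (0.01), Rpl14 (0.03), Rpl19 (0.00), Rpl23 (−0.01), Rpl34 (0.13) and Rps19 (−0.09), whose differences between the libraries ran both ways. The D-box TTATGTAA was in none of the 67 and in 0.938% of all promoters. The ETS motif CCGGAAG was in 25 of 67 (37.3%), against 8.86% of all, and the GC box GGGCGG in 41 of 67 (61.2%), against 35.7% of all. CCAAT was in 31.3% of subunit promoters, against 37.4% of all, and TATAAA in 8.96%, against 13.6%. A match describes the letters and shows no binding.

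Other genes of translation covered a wider range of differences, set mainly by a pair of initiation factor genes. Of the ribosomal protein genes outside the naming rule, Fau stood at 613 FPKM in the library labelled Per2def and 622 FPKM in the library labelled Per2wt (−0.02), and Gnb2l1, the gene of the scaffold RACK1, at 509.6 FPKM in the library labelled Per2def and 494 FPKM in the library labelled Per2wt (0.05). Of 6 elongation factor genes 4 had higher values in the library labelled Per2def, and their median was 0.04, beside 62.0% higher and a median of 0.05 for all measured genes. Eef2, the translocase, was at 513 FPKM in the library labelled Per2def and 467 FPKM in the library labelled Per2wt (0.14), and Eef1a1, which delivers tRNAs, at 2316 FPKM in the library labelled Per2def and 2241 FPKM in the library labelled Per2wt (0.05). Of 21 genes of initiation factors 3 and 4, 15 were higher, with a median of 0.05, the same as that of all measured genes, and Eif3f (0.22) and Eif4b (0.17) were among them. Scaled by the median of ratios, both medians turned slightly negative, at −0.01 and −0.003. The widest differences ran in opposite directions in Eif3j1 and Eif3j2, which both encode the J subunit of initiation factor 3. Eif3j1 was at 0.0619 FPKM in the library labelled Per2def and 10.2 FPKM in the library labelled Per2wt (−3.40), and Eif3j2 at 21.2 FPKM in the library labelled Per2def and 9.14 FPKM in the library labelled Per2wt (1.13). Their sum was 21.2 FPKM in the library labelled Per2def and 19.3 FPKM in the library labelled Per2wt (0.13), and sequence sharing between them was not measured.

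Of 7 further TOP mRNAs 5 were lower, with a median of −0.01, beside 38.0% lower among all measured genes. Hnrnpa1 (−0.12), Naca (−0.10) and Pabpc1 (−0.03) were the lowest, while Npm1 was higher (0.07). Of 9 genes that regulate TOP mRNAs or ribosome production 6 were higher, a share near that of all measured genes. The S6 kinase genes Rps6kb1, at 6.24 FPKM in the library labelled Per2def and 4.96 FPKM in the library labelled Per2wt (0.28), and Rps6kb2, at 6.59 FPKM in the library labelled Per2def and 5.31 FPKM in the library labelled Per2wt (0.27), differed most, and Myc was lower (−0.15). Mitochondrial ribosomal protein genes, also 77 in number, had a median of −0.02 and a range of −0.49 to 0.37, with 1 past the limit of 25% higher and 4 past that of 20% lower out of 77, where 8.19% and 4.38% of all measured genes passed the same limits, so the downward count is near the background. Their median level was 13.8 FPKM in the library labelled Per2def and 14.5 FPKM in the library labelled Per2wt, far under that of the cytosolic genes, and the part of this lower level in the wider range was not tested.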

How the data were processed

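RNA was measured in 2 libraries, 1 per genotype label. Per the labels' protocols, poly(A) RNA was selected and strands were marked with dUTP. The deposited FPKM values were made by the authors. Per the submitters' processing notes the tools were CASAVA 1.8, TopHat, Bowtie2 and Cufflinks, with builds GRCm38 and mm10. The sources used here give no other version, annotation, read length or strand setting. FPKM depend on each library's total, and Cufflinks divides multiply mapping reads among copies.

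Of 24487 rows per file, 9 without an estimate and 27 with symbols turned into dates were left out, and rows sharing a symbol were summed, which left 23961 symbols. Differences used log2(FPKM + 1). Identifiers, lengths and shared stretches of 50 bases (both strands) came from GENCODE M21. No test was run. The members and lists were chosen with earlier results of these data known. Named were the 5 most and 5 least abundant genes and the 6 highest and 6 lowest differences of each subunit, paralogues with parents, stalk and 5S genes, up to 4 genes of each other translation list, and the extremes of the Diamond-Blackfan list. Genes outside this rule, such as those holding an E-box, the X-linked genes and Rps12 in the account of shared sequence, were named after their values were seen. Some genes that the rule names are not reported here. Alternatives were 3 scalings, a pseudocount of 0.1 or 0.5 FPKM, dropping the filter or raising it to 5 FPKM, using the highest row of a symbol, Rps27 without Rps27rt, no members with a -ps row, genes outside the naming rule as members, and folds of 1.5 and 2. Leaving out genes with at least 50% shared stretches was chosen after seeing the data. The calculations used Python 3.11.15, numpy 2.4.6, pandas 2.3.3 and scipy 1.17.1. The test on simulated data covered the differences between the libraries, with the median and counts of the subunit genes.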

Additional observations from a re-analysis of the deposited data

How the results depend on the processing

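An alternative counted as moving a result by 0.05 or more on the log2 scale, 5% of a ratio or percent, or 1.5 times a count. The median difference of the subunit genes stayed negative under every alternative run, between −0.09 and −0.03. Scaled by the median of ratios it was −0.091, with −0.092 for large and −0.072 for small subunit genes, and 6 genes were higher. Scaled by the upper quartile 8 genes were higher. Leaving out genes with at least 50% shared stretches, an alternative chosen after seeing the data, gave 6 higher genes of 26, reversed large minus small to 0.036, where it was −0.02 otherwise, and put the ratio of large to small medians at 0.592 in the library labelled Per2def and 0.591 in the library labelled Per2wt. Without Rps27rt 1 gene, Rps27, was 25% higher or more, Rps27l took 60.8% of its pair in the library labelled Per2def and 96.3% in the library labelled Per2wt, and the ratio of medians was 0.707 in the library labelled Per2def. Without members that have a -ps row that ratio was 0.645 in the library labelled Per2wt. Over all rows the family's percent of FPKM was 6.20 in the library labelled Per2def and 6.35 in the library labelled Per2wt, because the row of Mir6236 takes 71.5% and 71.3% of all FPKM in the same order. The other 126 recomputed values did not move by these limits. The limit of 0.05 is wider than the subunit medians themselves, so an unmoved median could still change much for its size. Leaving out genes with at least 50% shared stretches, for example, took the small subunit median from −0.017 to −0.055. It took the large subunit median from −0.037 to −0.019. No paired analysis was possible because each genotype has 1 library, and for the same reason no replicate could be left out. Absolute depth is unknown, so differences of a few percent cannot be set against counting error.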
